A study of Mus musculus with 50 samples.

Results

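The genes described here are 9 markers of oligodendrocytes and their myelin, *Mbp*, *Mog*, *Mag*, *Mobp*, *Cnp*, *Cldn11*, *Mal*, *Opalin* and *Ermn*. They were chosen by gene symbol, and all 9 were found among the 24552 genes listed in both count tables. RNA-seq was performed on the nucleus accumbens (NAc) of C57BL/6 mice carrying RiboTag (RT), an HA-tagged ribosomal protein that is made only in cells with Cre recombinase. The genotypes were RT; D1-Cre and RT; D2-Cre. The tag is made where Cre is driven from the gene of the D1 or the D2 dopamine receptor, which in NAc marks D1 or D2 medium spiny neurons (MSNs), and the tag therefore follows the Cre line and not a sorted cell. An antibody against HA precipitated tagged ribosomes with their mRNA (IP samples), while input samples hold RNA of the whole homogenate and so of all cell types. Each library pooled tissue of 2 mice.

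Mice of both lines were 8 to 12 weeks old. Stressed mice were exposed to an aggressive CD1 mouse for 10 min on each day by the labels (the study's methods give a shorter time), over at most 10 days, and were sorted by social interaction into resilient (Res) and susceptible (Sus) animals, and control mice (Con) were not defeated. Inputs numbered 18, with 3 Con, 3 Res and 3 Sus libraries in each Cre line. IPs numbered 28, with 4 Con, 4 Res and 5 Sus D1 IPs and 5 D2 IPs in each stress group. A second table added 4 D1 IPs of male control mice of genotype RT; Sirt1-floxed; D1-Cre (Sirt1-KO), in which the same Cre acts on *Sirt1*. These have no inputs of their own, and their age is not given in the labels. Libraries held 18384265 to 31785984 counts, and the labels name no batch for any of them, while the study's methods name several rounds of defeat and several sequencing sets.

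In GRCm38 (mm10) the genes span chr18:82475146-82585637 (*Mbp*), chr17:37010743-37023398 (*Mog*), chr7:30899176-30914873 (*Mag*), chr9:120149707-120181484 (*Mobp*), chr11:100574904-100591729 (*Cnp*), chr3:31149920-31164324 (*Cldn11*), chr2:127633226-127656695 (*Mal*), chr19:41061710-41077113 (*Opalin*) and chr2:58045113-58052864 (*Ermn*). *Cnp* overlaps *Dnajc7* and *Ermn* overlaps *Galnt5*, each on the opposite strand and each counted in its own row. Whether counting used the strand is not given in the sources used here, so that reads of these pairs may not be told apart. Over the 18 inputs together, *Galnt5* had 2 counts and *Dnajc7* 62253. The part of *Dnajc7* in the values of *Cnp* was not tested.

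Oligodendrocytes wrap axons in myelin, a stack of compacted membrane built from lipids and a few very abundant proteins. Neurons do not build myelin, and transcripts of myelin genes are therefore widely used to follow RNA of glia in tissue and in neuronal preparations. *Mbp* (myelin basic protein) and *Mobp* lie between the cytoplasmic faces of compact myelin, and *Cnp* is an enzyme of its cytoplasmic channels. *Mag* lies on the membrane that faces the axon and *Mog* on the outermost one, *Cldn11* forms the tight junctions of myelin, and *Mal* is a proteolipid of membrane transport. *Ermn* (ermin) is a cytoskeletal protein and *Opalin* a membrane glycoprotein of mature oligodendrocytes.

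Promoter windows of RefSeq (GRCm38.p6, from 250 bases before to 50 after a transcription start) were found for 8 of the 9 genes, all but *Mbp*. They were searched on both strands for short motifs of factors of the oligodendrocyte lineage, namely SOX factors (ACAAAG and AACAAT), the myelin regulatory factor Myrf (CTGGCAC and CTGGTAC) and basic helix-loop-helix factors (CAGCTG). The windows of *Cnp* (chr11:100574689-100574988, plus strand), *Mag* (chr7:30914814-30915113, minus strand, 1 of 3 windows of this gene), *Opalin* (chr19:41077064-41077363, minus strand) and *Mog* (chr17:37023349-37023648, minus strand) are printed because they held the Myrf letters. Capitals mark the matches.
Cnp: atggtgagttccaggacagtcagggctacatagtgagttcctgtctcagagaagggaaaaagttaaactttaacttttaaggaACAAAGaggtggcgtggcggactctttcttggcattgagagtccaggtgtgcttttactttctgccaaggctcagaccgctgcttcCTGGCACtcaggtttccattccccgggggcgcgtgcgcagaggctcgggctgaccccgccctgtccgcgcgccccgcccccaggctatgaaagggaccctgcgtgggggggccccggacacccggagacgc
Mag: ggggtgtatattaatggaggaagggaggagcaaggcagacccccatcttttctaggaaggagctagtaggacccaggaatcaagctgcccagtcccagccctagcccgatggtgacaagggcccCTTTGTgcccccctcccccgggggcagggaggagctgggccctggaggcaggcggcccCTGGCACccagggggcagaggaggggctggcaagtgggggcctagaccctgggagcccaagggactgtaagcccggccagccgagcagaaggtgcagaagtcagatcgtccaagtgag
Opalin: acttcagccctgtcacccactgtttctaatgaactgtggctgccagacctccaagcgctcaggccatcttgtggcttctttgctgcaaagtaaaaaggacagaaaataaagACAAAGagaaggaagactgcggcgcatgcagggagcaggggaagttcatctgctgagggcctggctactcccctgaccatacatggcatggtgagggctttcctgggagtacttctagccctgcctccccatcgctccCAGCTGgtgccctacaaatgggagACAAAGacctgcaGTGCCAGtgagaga
Mog: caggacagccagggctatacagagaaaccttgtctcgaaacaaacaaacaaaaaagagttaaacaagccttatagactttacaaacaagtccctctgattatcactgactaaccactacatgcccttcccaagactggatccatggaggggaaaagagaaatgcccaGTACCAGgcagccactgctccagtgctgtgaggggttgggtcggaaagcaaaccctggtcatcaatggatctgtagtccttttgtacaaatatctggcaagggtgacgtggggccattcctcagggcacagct
CTGGCAC stood in windows of 3 of the 8 genes (*Mag*, *Cnp* and *Opalin*), against 5.73% of 27025 genes with a window, and CTGGTAC in 1 (*Mog*), against 2.60%. ACAAAG stood in 4 (*Mag*, *Mobp*, *Cnp* and *Opalin*), against 21.0%, AACAAT in 0, against 12.2%, and CAGCTG in 1 (*Opalin*), against 18.3%. The windows of *Cldn11*, *Mal* and *Ermn* held none of these letters. A match describes the letters of a window and is not a binding site.

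The labelled fractions were checked by markers. *Ppp1r1b* (DARPP-32), a gene of MSNs, was at 669 ± 91.3 CPM (counts scaled to a common library size with TMM factors, mean ± SD, n = 18) in inputs, 1634 ± 223 in the 13 D1 IPs and 2094 ± 186 in the 15 D2 IPs. *Gfap*, a gene of astrocytes, was at 40.8 ± 8.14 CPM in inputs, 5.00 ± 1.36 in D1 IPs and 3.61 ± 1.30 in D2 IPs. *Slc17a7*, a glutamate transporter of cortical excitatory neurons, ranged from 51.0 to 891 CPM among inputs. None of these tells D1 from D2 MSNs. Against inputs, D1 IPs were higher in *Drd1* (1.77-fold) and *Tac1* (2.27-fold), genes of D1 MSNs. They were also higher in *Penk* (2.70-fold), *Adora2a* (1.87-fold) and *Drd2* (1.26-fold), genes of D2 MSNs. In D2 IPs *Adora2a* was 5.80-fold higher than in inputs. The other genes of D1 and D2 MSNs are not reported here for D2 IPs. This check therefore does not compare how mixed the IPs of the lines were.

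Inputs were examined first, to ask whether RNA of myelin genes in whole NAc tissue differed by stress. No difference between Con, Res and Sus inputs passed the test for any of the 9 genes, and the largest was 0.12 on the log2 scale (*Ermn*, Sus minus Res). *Mbp* had a lowest, median and highest value of 1924, 2190 and 2430 CPM in the 6 Con inputs, 1718, 1970 and 2643 in the 6 Res inputs and 1904, 2081 and 2404 in the 6 Sus inputs. *Mag* had 148, 172 and 183 CPM in Con, 129, 157 and 200.0 in Res and 148, 161 and 202 in Sus. *Ermn* had 56.9, 61.3 and 71.9 CPM in Con, 53.6, 58.2 and 71.8 in Res and 56.6, 64.1 and 82.1 in Sus. The groups overlapped for each of the 9 genes, and the lowest and the highest input for *Mbp* were both Res inputs of the D1 line (3 and 2). Among all genes with a mean of 10 counts, 0.138% had Con and Res inputs apart, 0.193% Con and Sus, and 0.248% Res and Sus. In a bulk sample, fewer oligodendrocytes and less of an mRNA in each of them cannot be told apart.

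The other 6 genes showed the same overlap. *Cnp* had 258, 304 and 319 CPM in Con, 222, 282 and 347 in Res and 257, 281 and 368 in Sus. *Mobp* had 222, 249.2 and 277 CPM in Con, 187, 224 and 324 in Res and 199.6, 242 and 279.8 in Sus. *Mal* had 203, 240.5 and 263 CPM in Con, 169, 210.3 and 292 in Res and 198, 227 and 270.0 in Sus. For *Mobp* and *Mal* both the lowest and the highest input were Res inputs. *Cldn11* had 115, 129 and 139 CPM in Con, 89.5, 120.2 and 153 in Res and 104, 116 and 162 in Sus. *Mog* had 42.0, 51.2 and 54.3 CPM in Con, 35.5, 51.5 and 61.5 in Res and 45.1, 47.6 and 59.8 in Sus. *Opalin*, the least abundant, had 16.4, 21.7 and 22.7 CPM in Con, 13.6, 18.6 and 23.6 in Res and 18.1, 19.2 and 27.2 in Sus.

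**Figure D1:**
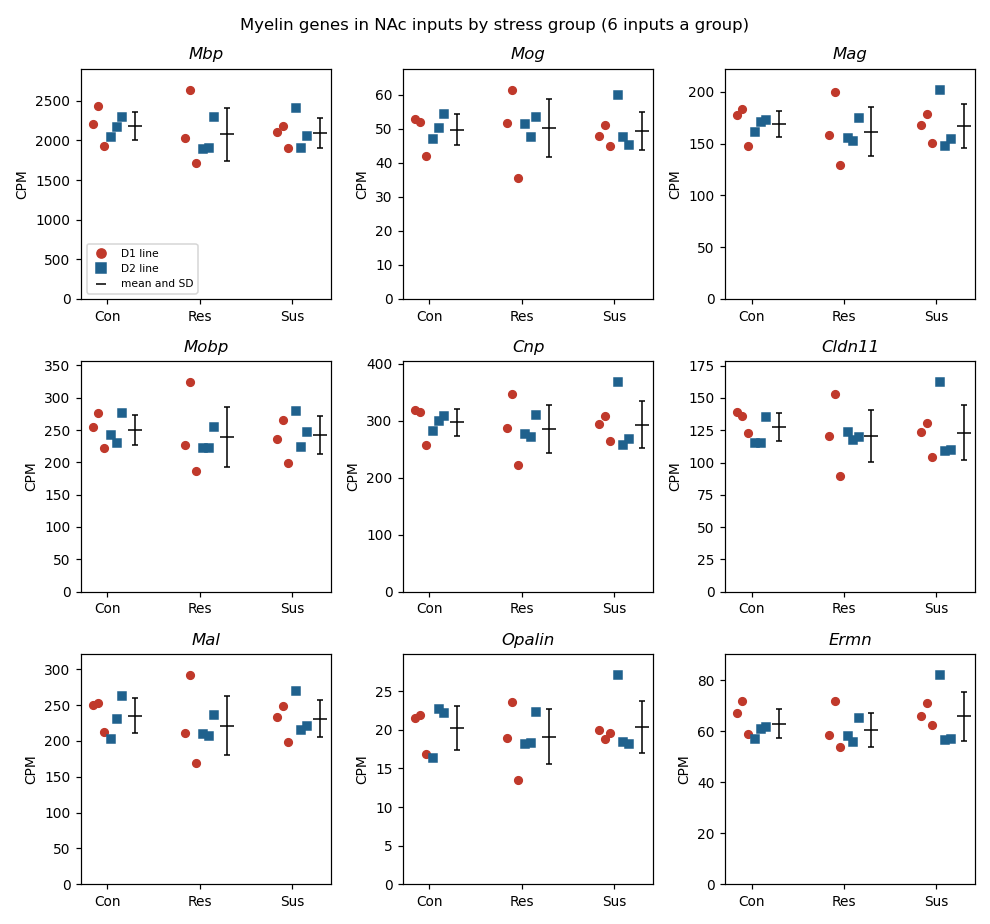
Levels (CPM, vertical axes) of the 9 myelin genes in each of the 18 inputs by stress group (Con, Res, Sus), with the Cre lines marked apart and the mean and SD of each group. The groups overlap for each gene, as for Mbp, which lies between 1718 and 2643 CPM.

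In edgeR's quasi-likelihood test with the Cre line as covariate, log2 differences of the 9 genes ran from -0.09 to 0.01 for Res minus Con, from -0.06 to 0.07 for Sus minus Con and from -0.02 to 0.12 for Sus minus Res. Their medians were -0.07, -0.02 and 0.04, beside 0.00, 0.00 and 0.00 for all 15063 genes. Past an adjusted p of 0.05 were 0 of 9 genes in each comparison, against 0.0% of all genes, and the lowest adjusted p was 0.903 (*Ermn*, Sus minus Res). At an unadjusted p under 0.05, edgeR called 490, 679 and 824 of all genes (3.25%, 4.51% and 5.47%) and 0 of the 9. The 95% confidence intervals of the 9 genes lay within -0.34 to 0.22 for Res minus Con, -0.27 to 0.26 for Sus minus Con and -0.23 to 0.35 for Sus minus Res. With 1 input left out at a time, the medians ran from -0.15 to -0.0059, -0.092 to 0.012 and -0.03 to 0.13.

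Other genes of the lineage gave like values. Of 35 further myelin and oligodendrocyte genes, 0 passed the adjusted p in any of the 3 comparisons, with medians of -0.05, -0.02 and 0.05. The change by stress was also compared between the Cre lines, and 0 of 9 genes passed, as did 0.0% of all genes. D1 minus D2 inputs ran from -0.07 to 0.07 with 0 of 9 genes past an adjusted p of 0.05, against 0.039% of all genes.

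Per kilobase of exon, *Mbp* was the highest of the 9 genes in inputs with 250 ± 27.6 CPM per kilobase (SD, n = 18), and its lowest input lay above every input of the other genes. *Mal* (82.5 ± 10.8), *Cnp* (80.2 ± 9.52) and *Cldn11* (66.2 ± 9.27) followed with overlapping ranges. *Mag* (40.7 ± 4.6), *Mobp* (35.6 ± 4.78), *Mog* (29.2 ± 3.56) and *Ermn* (17.3 ± 2.04) each overlapped with the gene next above in the order. *Opalin* (6.76 ± 1.07) lay below every input of the others. *Mbp* made up 64.1% ± 0.822 of the summed CPM of the 9 genes in inputs, 59.8% ± 1.81 in D1 IPs and 65.5% ± 1.68 in D2 IPs.

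The 9 genes varied together from input to input. As a description over 18 inputs that share one scaling, Pearson's r of log2 CPM had a median of 0.88 over 36 pairs of genes, from 0.72 (*Ermn* with *Mog*) to 0.99 (*Cnp* with *Mag*). The median r was 0.84 over the 13 D1 IPs and 0.75 over the 15 D2 IPs. Among the genes nearest the mean profile of the 9 over inputs were *Prr18* (r = 0.96), *Tspan2* (0.94), *Bcas1* (0.94) and *Tmem88b* (0.93). Over the 28 IPs *Plekhb1* (0.95), *Csrp1* (0.91) and *Padi2* (0.90) were among the nearest.

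Levels of the 9 genes were lower in inputs with more *Slc17a7*, a relation that was chosen after the data were seen and tested for 9 genes. In log2 CPM over 18 inputs *Ermn* had r = -0.92 (permutation p = 2e-05, the smallest these permutations can give; adjusted 4.5e-05) and rho = -0.87 (permutation p = 4e-05, adjusted 0.00027). *Mobp*, the weakest, had r = -0.64 (permutation p = 0.00544, adjusted 0.00544) and rho = -0.70 (permutation p = 0.00188, adjusted 0.00188). Without the 2 inputs farthest from the median of *Slc17a7*, r ran from -0.89 to -0.67 over the 9 genes. Within the 9 D1 inputs r ran from -0.91 to -0.78 and within the 9 D2 inputs from -0.96 to -0.69. Without the 2 farthest inputs of a line these became -0.77 to -0.50 and -0.84 to -0.38. D2 Sus input 1 had the least *Slc17a7* and the most *Ermn* (82.1 CPM), and D1 Res input 3 the most *Slc17a7* and the least *Ermn* (53.6 CPM). Whether the dissected tissue has a part in this was not tested.

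**Figure D2:**
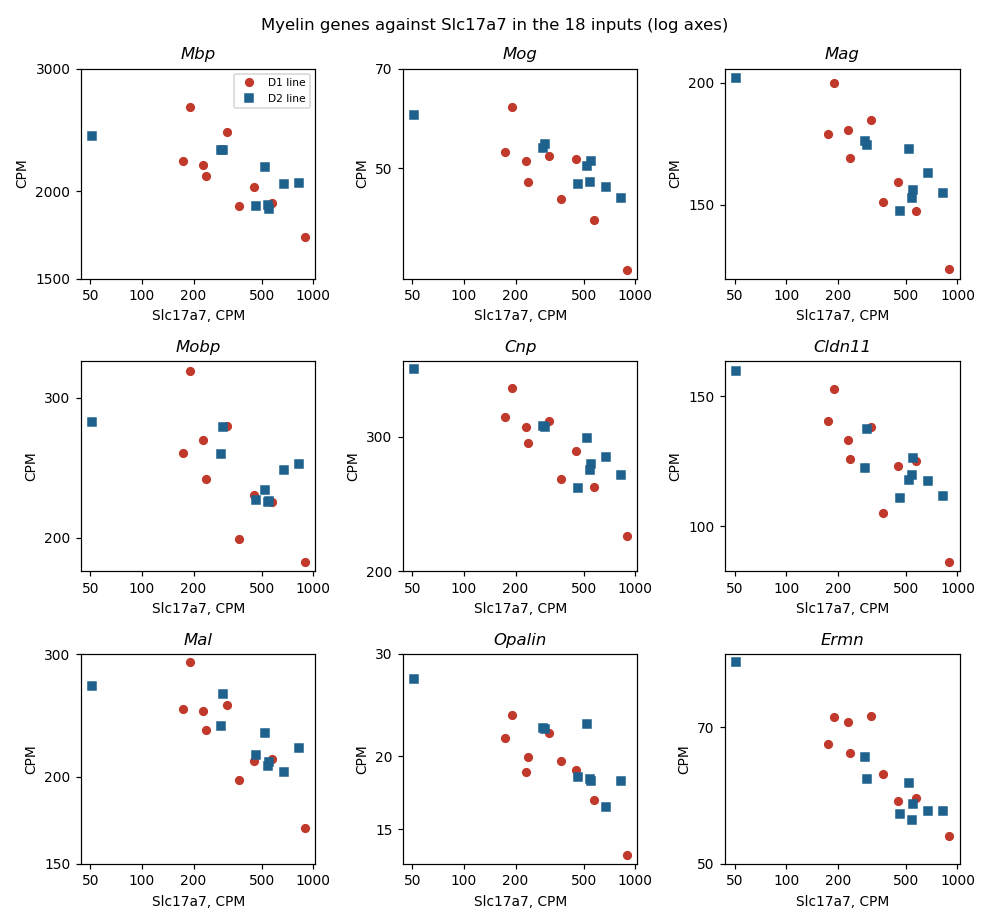
Levels of the 9 myelin genes against the level of Slc17a7 (both in CPM, axes as labelled) in the 18 inputs, each point an input. Inputs with more Slc17a7, which ranged from 51.0 to 891 CPM, held less RNA of the myelin genes, with r from -0.92 for Ermn to -0.64 for Mobp.

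IPs were then compared with inputs, to ask how the relative level of myelin RNA differed after the pull-down. All 9 genes fell in IPs of both lines, from 5.39-fold (*Cnp*) to 11.1-fold (*Mobp*) in D1 and from 7.51-fold (*Cnp*) to 15.6-fold (*Ermn*) in D2. *Mobp* had a lowest, median and highest value of 187, 237 and 324 CPM in the 9 D1 inputs and 16.1, 21.96 and 32.6 in the 13 D1 IPs. *Cnp* had 222, 294 and 347 CPM in D1 inputs and 43.3, 57.1 and 70.4 in D1 IPs. *Ermn* had 55.7, 58.0 and 82.1 CPM in the 9 D2 inputs and 2.73, 3.98 and 5.53 in the 15 D2 IPs. No IP reached an input of its line for any of the 9 genes. Among all genes 24.7% in D1 and 21.7% in D2 lay as fully below the inputs.

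**Figure D3:**
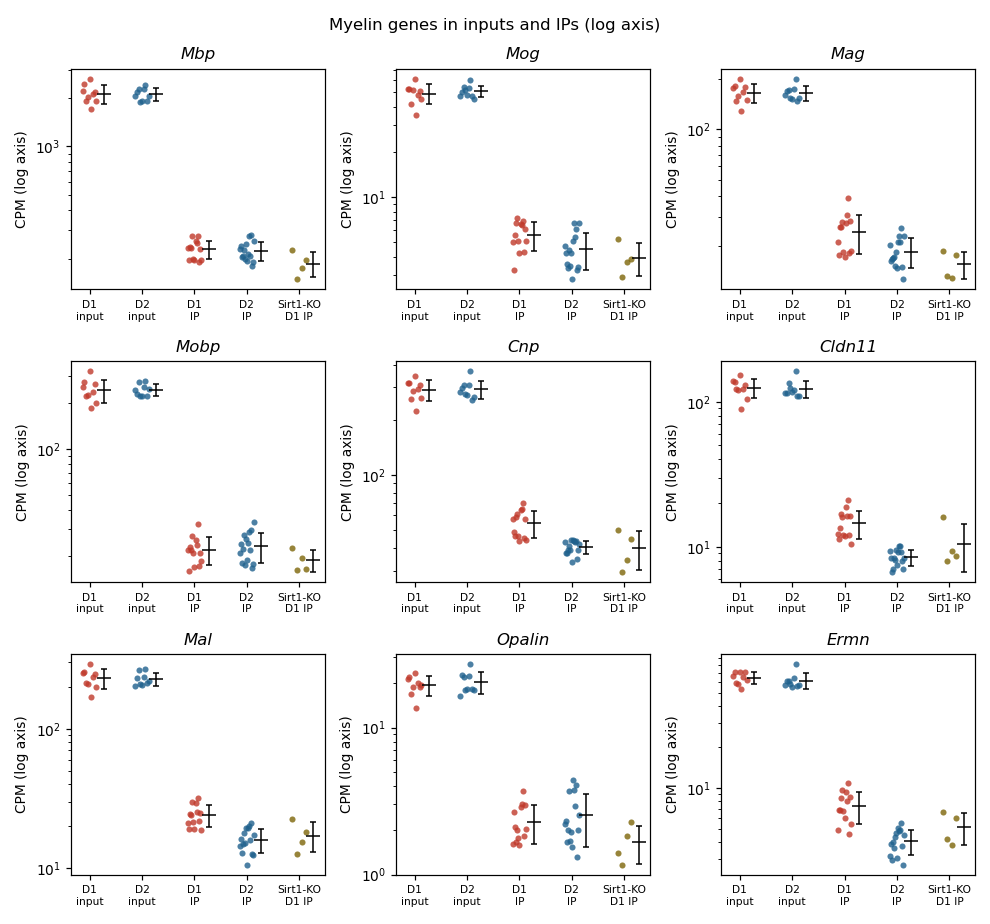
Levels (CPM, logarithmic vertical axes) of the 9 myelin genes in inputs and IPs of each Cre line and in the 4 D1 IPs labelled Sirt1-KO, each point a library. IPs lie below the inputs for each gene, as for Mobp with 16.1 to 32.6 CPM in D1 IPs against 187 to 324 in D1 inputs.

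In the model of all 46 libraries, log2 differences from input ran from -3.48 (*Mobp*, SE 0.12) to -2.43 (*Cnp*, SE 0.08) in D1 and from -3.97 (*Ermn*, SE 0.11) to -2.91 (*Cnp*, SE 0.08) in D2. The 9 of 9 genes passed an adjusted p of 0.05 and a fold of 1.5 in both lines (edgeR), with the highest adjusted p 5.27e-21 in D1 and 1.35e-21 in D2 for *Opalin*. Of all 15404 genes 29.3% in D1 and 30.8% in D2 were lower by this rule. The median of the 9 genes was -3.14 in D1 and -3.44 in D2, beside -0.04 and -0.08 for all genes. *Opalin* rests on the fewest reads, 35 to 125 counts in an IP.

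As a percentage of its CPM in the input with the same number, *Cnp* was at 18.6% ± 3.12 in D1 IPs (SD, n = 9 pairs) and 13.6% ± 2.13 in D2 IPs (n = 9). CPM are relative to a library, so these values do not measure the amount of RNA recovered. The pairs go by number alone, and the model of all 46 libraries did not use them. *Mag* was at 14.5% ± 4.29 and 11.1% ± 2.68, and *Mog* at 11.1% ± 2.79 and 8.33% ± 2.24. *Mbp* was at 10.9% ± 2.05 and 10.6% ± 2.14, and *Mobp* at 9.27% ± 2.20 and 8.95% ± 2.35. The most even pair of lines was thus seen for *Mbp* and *Mobp*. *Cldn11* was at 11.5% ± 2.75 and 7.02% ± 1.13, and *Mal* at 10.6% ± 2.34 and 6.86% ± 1.84. *Ermn* was at 11.2% ± 3.22 and 6.62% ± 1.68, and *Opalin* at 11.8% ± 3.80 and 10.9% ± 4.67. A change of the depletion by stress passed the adjusted p for 0 of 9 genes in either line, as for 0.0% of all genes, and the lowest unadjusted p of the 9 genes was 0.160 (edgeR, 4 comparisons).

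Of the 35 further myelin and oligodendrocyte genes, 34 fell by this rule in D1 and 34 in D2, with medians of -2.77 and -3.12. The largest differences were those of *Bcas1* (-3.34), *Gpr37* (-3.32) and *Gjb1* (-3.30), a gap junction gene, in D1. In D2 they were those of *Klk6* (-4.84), a secreted protease, *Apod* (-4.12), a lipid carrier, and *Gpr37* (-4.11). The exception was *Omg*, the oligodendrocyte-myelin glycoprotein, which neurons also make (-0.01 in D1 and -0.26 in D2). Of 9 genes of precursors and newly formed oligodendrocytes, 9 fell in D1 and 8 in D2, with medians of -2.25 and -2.18. Astrocyte genes (8 of 8 in each line, medians -3.06 and -3.49), microglial genes (8 of 8, -4.42 and -3.98) and endothelial genes (7 of 7, -3.87 and -3.49) fell too. A list of 5 genes of ependymal cells and choroid plexus did not fall as a sum. It summed to 14.57 ± 2.001 CPM (mean ± SD) in D1 IPs and 14.17 ± 2.503 in D1 inputs. In D2 the sums were 17.75 ± 2.045 CPM in IPs and 13.01 ± 1.976 in inputs. Single genes of this list went both ways. In D1 Con IPs against D1 Con inputs *Foxj1* was at -1.47 and *Kl* at 0.39 (log2, model of 11 libraries). Of the genes of neurons and MSNs, 8 of 12 rose in each line, against 13.8% and 12.8% of all genes.

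**Figure D4:**
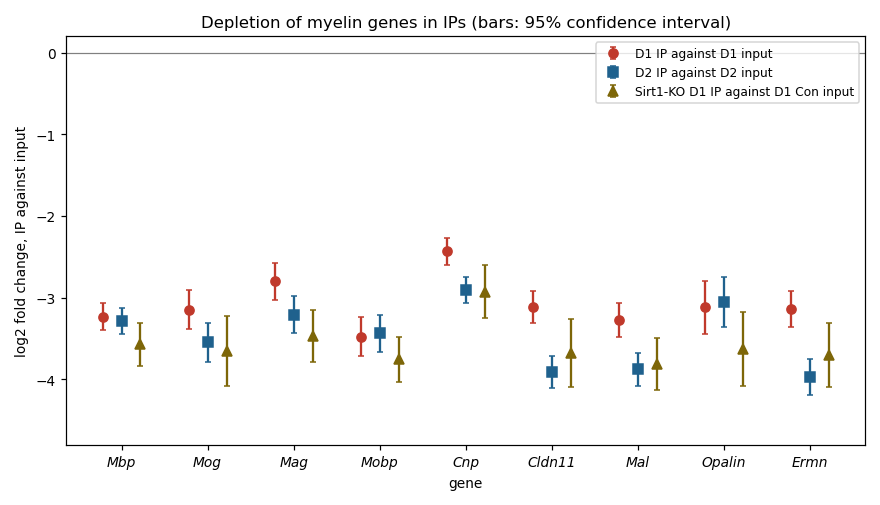
Log2 fold change of each of the 9 myelin genes in D1 IPs, D2 IPs and the D1 IPs labelled Sirt1-KO against inputs (D1 Con inputs for the last), with bars for the 95% confidence interval from edgeR. All values lie below 0, from -3.97 for Ermn in D2 to -2.43 for Cnp in D1.

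The depletion differed between the lines for some of the 9 genes. Relative to inputs, *Cldn11* was lower in D2 IPs than in D1 IPs, with a log2 difference of -0.79 (SE 0.14, edgeR adjusted p = 2.91e-05). *Ermn* differed by -0.83 (SE 0.16, adjusted p = 9.48e-05) and *Mal* by -0.60 (SE 0.14, adjusted p = 0.00137). These 3 genes passed the 1.5-fold rule, against 4.93% of all genes in this direction. *Mal* lay at the edge of the rule, and passed it in 26 of 46 fits that left out 1 library, where *Cldn11* and *Ermn* passed it in 46. *Cnp* passed the adjusted p alone (-0.48, adjusted p = 0.00125), a bar that 13.7% of all genes passed in this direction. *Mag* (-0.41, adjusted p = 0.0562) and *Mog* (-0.40, adjusted p = 0.0766) did not pass. Without 1 library, *Mag* passed the adjusted p in 7 and *Mog* in 2 of 46 fits. For *Mbp*, *Mobp* and *Opalin* the differences were -0.05, 0.04 and 0.07, with 95% intervals from -0.28 to 0.18, -0.28 to 0.36 and -0.39 to 0.52. In contrasts within Con, Res and Sus samples in the same model, 0, 0 and 2 of the 9 genes passed the rule, against 1.99%, 1.39% and 3.45% of all genes. A separate fit to the Con libraries called 2 of the 9, *Cldn11* (-0.67, edgeR adjusted p = 0.0216) and *Ermn* (-0.82, adjusted p = 0.0159), against 3.4% of all genes in either direction.

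The levels in IPs separated the same genes. The same IPs entered both comparisons and inputs of the lines differed little, so these values are not a second, independent result. *Cldn11* had a lowest, median and highest value of 10.5, 13.6 and 20.9 CPM in D1 IPs and 6.70, 8.35 and 10.2 in D2 IPs. *Ermn* had 4.57, 6.88 and 10.9 CPM in D1 IPs and 2.73, 3.98 and 5.53 in D2 IPs. *Mal* had 18.9, 24.2 and 32.0 CPM in D1 IPs and 10.6, 15.9 and 21.1 in D2 IPs. *Cldn11* was the 1 gene of the 9 with all D1 IPs above all D2 IPs, against 1.67% of all genes, and 10 of 13 D1 IPs lay above every D2 IP for *Ermn* and for *Mal*. *Cnp* had 43.3, 57.1 and 70.4 CPM in D1 IPs and 33.3, 40.6 and 44.2 in D2 IPs, and *Mbp* had 191, 232 and 277 and 181, 214 and 279. For *Cnp* 11 of 13 D1 IPs lay above every D2 IP, while for *Mbp* the lines overlapped.

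In the model of the 28 IPs, D1 minus D2 was 0.88 for *Ermn* (SE 0.13, edgeR adjusted p = 1.56e-06), 0.79 for *Cldn11* (SE 0.09, adjusted p = 8.03e-08) and 0.60 for *Mal* (SE 0.10, adjusted p = 1.63e-05). These 3 of 9 genes were higher in D1 IPs by the 1.5-fold rule, against 4.94% of all 14224 genes. *Cnp* (0.45, adjusted p = 5.71e-06), *Mag* (0.39, adjusted p = 0.00773) and *Mog* (0.33, adjusted p = 0.0488) passed the adjusted p but not the fold, and 19.6% of all genes passed that p with D1 IPs higher. *Mog* passed it in 11 of 28 fits that left out 1 library (adjusted p 0.0147 to 0.102). *Mbp* (0.05, 95% interval -0.10 to 0.20), *Mobp* (-0.06, -0.29 to 0.17) and *Opalin* (-0.16, -0.53 to 0.21) did not pass. The median of the 9 genes was 0.39, beside -0.02 for all genes. Within Con, Res and Sus IPs, *Cldn11* differed by 0.79, 0.75 and 0.84 and *Ermn* by 0.97, 0.86 and 0.82, each past the rule, which 3.42%, 3.72% and 3.94% of all genes passed with D1 IPs higher. *Mal* stood at the edge of 1.5-fold, with 1.48-fold in Con, 1.49-fold in Res and 1.57-fold in Sus IPs, and it passed the rule in 19 of these 28 fits.

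**Figure D5:**
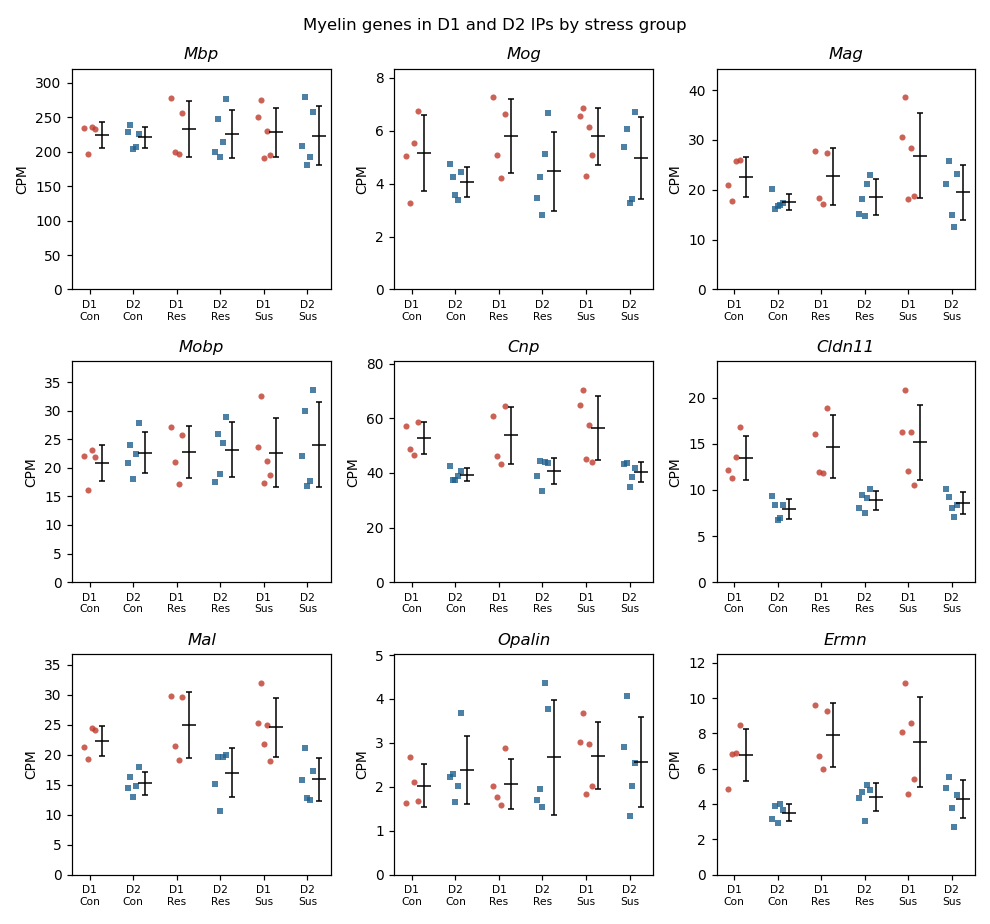
Levels (CPM, vertical axes) of the 9 myelin genes in D1 IPs and D2 IPs by stress group, each point a library. For Cldn11 the D1 IPs (10.5 to 20.9 CPM) lie above the D2 IPs (6.70 to 10.2 CPM), and for Mbp the lines overlap.

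Markers of other cells differed between D1 and D2 IPs as well. Of all genes, 4.94% were higher in D1 IPs by the 1.5-fold rule, and 19.6% passed the adjusted p with D1 IPs higher. The share of all genes lower in D1 IPs is not reported here. Of the 35 further myelin genes 9 were higher in D1 IPs by the 1.5-fold rule and 0 lower (median 0.33), among them *Klk6* (2.85), *Trf* (1.17), the iron carrier transferrin, *Apod* (1.02) and *Ugt8a* (0.86), an enzyme of galactolipid synthesis. The 5 genes of cortical excitatory neurons summed to 406 to 1397 CPM in D1 IPs and 22.2 to 319 in D2 IPs, and 5 of 5 were higher in D1 IPs (median 1.89). The 8 astrocyte genes summed to 62.6 to 121 and 53.5 to 86.0 CPM, with 1 higher by the rule and 7 past the adjusted p. The 8 microglial genes summed to 21.0 to 31.3 and 25.1 to 34.0 CPM, with 1 lower in D1 IPs, and the 7 endothelial genes to 6.04 to 9.10 and 5.41 to 13.2 CPM, with 2 lower. No gene of these lists was at 0 in either line, and their part in the difference of the 9 genes was not tested.

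Within IPs of a line, no difference by stress passed the test for the 9 genes. *Opalin*, with the largest difference, was at 1.63, 2.68, 2.11 and 1.67 CPM in the 4 D1 Con IPs, 2.02, 1.77, 1.59 and 2.88 in the 4 D1 Res IPs and 3.01, 3.68, 1.83, 2.97 and 2.03 in the 5 D1 Sus IPs. The groups overlapped, and Sus minus Con was 0.42 (SE 0.32, 95% interval -0.23 to 1.07, edgeR adjusted p = 0.846). In D1, log2 differences of the 9 genes ran from 0.01 to 0.22 for Res minus Con, 0.03 to 0.42 for Sus minus Con and -0.07 to 0.39 for Sus minus Res. In D2 they ran from 0.04 to 0.33, 0.03 to 0.30 and -0.09 to 0.16 in the same order. Past an adjusted p of 0.05, and past an unadjusted p of 0.05, were 0 of 9 genes in each of the 6 comparisons. Of all genes, 0.00703% passed the adjusted p in D1 Res against Con and 0.0% in the other 5, while 2.11%, 5.34% and 4.23% in D1 and 3.02%, 3.68% and 1.66% in D2 passed an unadjusted p of 0.05, in the same order. In each line both comparisons with Con share its Con IPs, and the fitted values of all 9 genes were above 0 in them, with medians of 0.13 and 0.15 in D1 and 0.14 and 0.12 in D2, beside 0.00, 0.00, 0.00 and 0.01 for all genes. Leaving out 1 library at a time moved these medians over 0.012 to 0.22 and 0.035 to 0.29 in D1 and 0.031 to 0.22 and 0.012 to 0.20 in D2. No difference in the change by stress between the lines passed either, for 0 of 9 genes and 0.0% of all genes.

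The D1 IPs labelled Sirt1-KO were compared with the D1 Con IPs. All libraries labelled Sirt1-KO, and no D1 Con IP, were added apart from the rest of the series. Genotype and set can therefore not be told apart. *Sirt1*, the targeted deacetylase gene, was at 14.0, 17.1, 15.6 and 14.9 CPM in the 4 D1 Con IPs and at 15.9, 16.8, 13.7 and 10.6 CPM in the 4 libraries labelled Sirt1-KO, and the groups overlapped. The difference in mean log2 CPM was -0.13 (two-sided exact permutation test, p = 0.543, n = 4 and 4). Which exons the floxed allele loses is not given in the sources used here, and a count over the whole gene may not show the loss of a part of it.

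Fitted differences of the 9 genes between libraries labelled Sirt1-KO and D1 Con IPs were all below 0, and none passed the test. *Mag* was at 21.0, 17.7, 25.8 and 26.0 CPM in D1 Con IPs and at 18.6, 13.2, 12.9 and 17.6 in the libraries labelled Sirt1-KO. *Cnp* was at 57.1, 48.9, 46.6 and 58.6 CPM and at 50.1, 29.4, 34.2 and 44.7. *Mbp* was at 234, 196, 235 and 232 CPM and at 227, 148, 174 and 195. For each of these 3 genes the first library labelled Sirt1-KO lay among the D1 Con IPs. The groups were apart for 0 of 9 genes, against 5.4% of all genes that were lower in the libraries labelled Sirt1-KO. *Cldn11* was at 12.2, 11.3, 13.6 and 16.8 CPM and at 16.1, 7.92, 9.29 and 8.62, and *Mal* at 21.2, 19.3, 24.6 and 24.2 and 22.5, 12.7, 15.5 and 18.2.

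In edgeR's test over 13626 genes, log2 differences ran from -0.53 (*Mag*, SE 0.15, adjusted p = 0.0915) to -0.13 (*Mobp*, SE 0.13, adjusted p = 0.642). By an adjusted p under 0.05 and a fold of 1.5, 0 of 9 genes were lower, against 0.47% of all genes. An unadjusted p under 0.05 was reached by 4 of the 9 (*Mbp*, *Mag*, *Cnp* and *Mal*), and by 8.11% of all genes in this direction. The median of the 9 genes was -0.37, beside 0.00 for all genes. *Mag* passed the rule without the library labelled Sirt1-KO 5, with a log2 difference of -0.60 and an edgeR adjusted p of 0.0376, and by DESeq2 it passed the adjusted p alone (-0.53, adjusted p = 0.0168).

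The other lists were read in the same comparison. Of the 35 further myelin genes 1 fell, *Nkx6-2*, a homeobox factor of the lineage (-1.06, SE 0.22, edgeR adjusted p = 0.0376), and their median was -0.33. The 5 genes of cortical excitatory neurons summed to 406 to 1069 CPM in D1 Con IPs and 883 to 1671 in the libraries labelled Sirt1-KO, with a median of 0.89, 0 of 5 past the adjusted p and 5 past an unadjusted p of 0.05, against 9.15% of all genes in this direction. The 8 astrocyte genes summed to 62.6 to 99.8 and 54.3 to 77.2 CPM, and the 12 genes of neurons and MSNs had a median of -0.32. Their part in the values of the 9 genes was not tested.

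Against the 3 D1 Con inputs, which came from mice without the floxed allele, the 9 of 9 genes were lower in the libraries labelled Sirt1-KO. Log2 differences ran from -3.81 (*Mal*, SE 0.15) to -2.93 (*Cnp*, SE 0.15), with the highest adjusted p 3.78e-09 (*Opalin*, edgeR), and 26.8% of all genes were lower by the same rule. The summed CPM of the 9 genes was 236 to 370.3 in these IPs, 322 to 397 in D1 Con IPs and 2617 to 4117 in the 18 inputs.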

How the data were processed

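The authors deposited raw counts per gene, 1 table for 28 IPs and 18 inputs and 1 for the Sirt1-KO IPs with the 4 D1 Con IPs, whose counts are the same in both. Per the labels and the study's methods, poly-A libraries were trimmed, aligned to mm10 with STAR and counted with HTSeq (the counter of the Sirt1-KO table is not named), and the versions, the annotation and the strand setting are not given in the sources used here. Each table also has 5 entries that name no gene, left out of library sizes, which held 18.02% to 39.99% of the counts of a library. Left out too were 2 columns that match no sample description, and 5 symbols listed 2 times in the Sirt1-KO table were taken once.

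Counts were tested with edgeR 4.0.16 in R 4.3.3 (TMM factors; low genes removed by filterByExpr at min.count 10 and min.total.count 15; glmQLFit and glmQLFTest). Adjusted p is Benjamini-Hochberg over all genes that passed this filter, and the 9 genes passed it in each model. Models held the 18 inputs (line and stress), all 46 libraries, the 28 IPs, 8 D1 Con and Sirt1-KO IPs, or 11 libraries with D1 Con inputs. Called means an adjusted p under 0.05, and between fractions, lines or genotypes also a fold over 1.5. CPM use TMM factors, and log2 CPM for correlations a prior count of 2. Mice came from several rounds of defeat and libraries were sequenced in several sets, which the labels do not tie to libraries, and p-values measure the spread between these pools. In simulated counts, 91% of 100 genes changed 1.5-fold were found for Sus against Con inputs and 77% for Sirt1-KO against Con. Changed genes were drawn from those with more counts, with a spread set by level alone and no effect of line or pool. In these runs 6 and 10 unchanged genes were called, and genes with few counts may be found less often. Members and lists were chosen with earlier results of these data known. Genes named beside the 9 are those of the lists with the largest fold or the nearest profile, and the exceptions of a list. Some genes with a near profile are not reported here. Alternatives were RLE factors, library size alone, other filters, DESeq2 1.42.0, replicate blocks, Con samples alone and leaving out each library. Gene positions are from GENCODE and promoter windows from RefSeq.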

Additional observations from a re-analysis of the deposited data

Results flagged for a closer look

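In 90 sets of 4 to 10 libraries and 1 gene, 5 held a library far from the others by Dixon's criterion, and chance gives about 1 in 20. D1 Con IP 2 was the lowest of 4 for *Mbp* (196.1 CPM) and for *Mobp* (16.1 CPM). The first library labelled Sirt1-KO was the highest of 4 for *Cldn11* (16.1 CPM), D2 Con IP 1 the highest of 5 for *Mag* (20.2 CPM), and D2 Sus input 1 the highest of the 6 Sus inputs for *Opalin* (27.2 CPM).

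The depletion in IPs differed between the Cre lines by the interaction test of edgeR at an adjusted p under 0.05 for 4 of the 9 genes, as for 13.7% of all genes with D2 lower and 25.5% in either direction, and 3 of the 4 also passed 1.5-fold (all but *Cnp*). D2 minus D1 was -0.79 for *Cldn11*, -0.83 for *Ermn*, -0.60 for *Mal* and -0.48 for *Cnp* on the log2 scale, each with D2 IPs lower. What sets these 4 genes apart from *Mbp*, *Mobp* and *Opalin* was not tested.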

How the results depend on the processing

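The 9 genes passed the rule for IP against input in both lines, and for Sirt1-KO IPs against D1 Con inputs, under every alternative run. With library size alone the median of all genes moved from -0.04 to -0.23 in D1, from -0.08 to -0.21 in D2 and from -0.01 to -0.29 for Sirt1-KO IPs against inputs. In D2 minus D1 of the depletion *Mbp* was 0.019 with library size alone, and *Mal* fell under 1.5-fold with RLE factors (-0.58), library size alone (-0.54), DESeq2 (-0.58) and Con libraries only (-0.53), with the adjusted p still under 0.05. Leaving out 1 library took *Mal* under 1.5-fold in 20 of 46 fits (-0.67 to -0.53) and moved *Mbp* between -0.099 and 0.0147, *Mobp* between -0.0328 and 0.12 and *Opalin* between -0.0213 and 0.17. In D1 minus D2 IPs *Mal* was 0.57 in Con IPs only and under 1.5-fold in 9 of 28 fits without 1 library (0.55 to 0.64). The cause was not tested for any of these.

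Deviations of libraries with the same number had r over 0.1 in 5 of 18 IP and input pairs, 7 of 18 pairs of inputs and 2 of 12 D1 and 6 of 15 D2 pairs of IPs across stress groups, 5 of 13 pairs of IPs across lines and 0 of 3 Sirt1-KO and D1 Con pairs. As not every pair was over 0.1 in any of these, the libraries were taken to share only a number, although all 3 pairs were over it for D2 IPs numbered 5 (0.15 to 0.25) and for D1 inputs numbered 2 and 3. With a replicate block *Mobp* and *Opalin* were -0.0777 and -0.16 in D2 minus D1 of the depletion, and 0.0044 and 0.0091 in D1 minus D2 IPs. For D2 minus D1 of the depletion, 5 of 9 genes passed the adjusted p with the block, against 4 without it. This block held only the 18 pairs of an IP and an input of the same number, and left out the other IPs. The fit without it held 46 libraries, so these counts come from unlike sets of libraries. In Sirt1-KO against D1 Con IPs, D1 Con IP 2 and the library labelled Sirt1-KO 5 had no partner of their number. With the block, the difference therefore rested on 3 pairs of different mice, whose r was 0.018 to 0.060. There the block called 1 of 9 genes by the 1.5-fold rule (*Mag*, -0.70, edgeR adjusted p = 0.00688). At an adjusted p under 0.05 alone it called 3 of 9 (*Mbp*, *Mag* and *Cnp*) and 1618 of all genes, against 0 and 226 without it and 1 and 741 by DESeq2. Leaving out 1 library there gave 0 to 1 of the 9. No block was fitted for Sirt1-KO IPs against inputs, which are of other mice.

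For stress, no alternative called any of the 9 genes. Of their values 28 of 270 in inputs and 14 of 378 in IPs changed sign, and 50 of 486 and 89 of 1512 when 1 library was left out. Without the inputs highest and lowest in *Slc17a7*, an alternative chosen after seeing the data, the median of the 9 genes for Sus minus Res was -0.10 in place of 0.04. Depth limits *Opalin* most.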
